A study of Mus musculus with 18 samples.

Results

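The genes described here are 45 enzymes, carriers and responsive genes of fatty acid oxidation, taken by symbol from the 23474 genes of a table of FPKM values (fragments per kilobase of transcript and of mapped fragments, scaled to a fixed library size). They were chosen as genes of mitochondrial, peroxisomal and omega-oxidation and as known targets of the nuclear receptor PPAR-alpha, from general knowledge of their function. The RNA was that of male C57BL/6J mice, aged 17 weeks, whose liver and epididymal fat were taken. For 12 weeks, starting when they were 5 weeks old, they had eaten normal chow (ND), a diet high in fat (HFD), or the latter with a green tea ethanol extract at 0.25% by weight (GT). Of 30 individually housed mice, 10 per diet, 3 libraries were deposited for each tissue and diet, 18 in all. All animals were of one strain, and the labels name no engineered allele. The labels do not say whether a library holds 1 mouse or several, so p-values measure the spread between these libraries, which may be partly technical.

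Fatty acids are first activated to acyl-CoA, and long chains enter mitochondria through the carnitine shuttle, in which carnitine palmitoyltransferase 1 controls the rate. Inside, repeated rounds of beta-oxidation shorten the chain, and electrons leave through the electron transfer flavoprotein. Peroxisomes shorten very long chains, while Cyp4a cytochromes of the liver oxidize the far (omega) end of the molecule. In hepatocytes PPAR-alpha, activated by fatty acids, switches on genes of all these routes, and Cyp4a10, Cyp4a14, Ehhadh and Acot1 are among its classical mouse targets.

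PPAR-alpha binds DNA with a retinoid X receptor at a direct repeat, AGGTCANAGGTCA, whose AGGTCA half-sites are separated by 1 base. This motif was searched on both strands of RefSeq promoters (GRCm38.p6, 250 bases before to 50 after each start), which matched 32 of the 45 genes. The 13 without a promoter window were not searched. They were all the Cyp4a members, Cpt1b, Crat, Acaa2, Decr1, Abcd2, Hsd17b4, Angptl4 and Vnn1. No other motif was searched. With at most 1 mismatch in its 12 fixed letters it was found in 0 of the 32, against 0.644% of 27025 genes in the table. With at most 2 mismatches it was found in 5 of the 32 (15.6%), against 4.4% of all genes, and with at most 3 in 10 of the 32 (31.2%), against 27.3%. The 5 stretches are shown because they are the closest matches among the 32 genes searched, written along the gene's own strand with the match in capitals.
Acot4: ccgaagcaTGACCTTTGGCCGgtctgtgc
Etfa: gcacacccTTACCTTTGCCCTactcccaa
Echs1: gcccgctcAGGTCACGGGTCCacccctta
Creb3l3: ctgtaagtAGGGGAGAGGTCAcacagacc
Slc25a20: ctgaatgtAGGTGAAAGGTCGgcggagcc
The match of Acot4 (chr12:84038366-84038378, gene on the plus strand) reads as the motif on the opposite strand and begins 13 bases before the start, that of Etfa (chr9:55512308-55512320, minus strand) is also on the opposite strand, 77 bases before it. Echs1 (chr7:140116492-140116504, minus strand) and Creb3l3 (chr10:81092788-81092800, minus strand) carry theirs on the same strand, 83 and 209 bases before the start, and Slc25a20 (chr9:108662142-108662154, plus strand) 6 bases after it. A match describes letters only, and windows without one say nothing about the receptor.

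Some libraries stood apart in ways that touch these genes. In adipose ND 1, transcripts of testis and epididymis were abundant: 12 spermatid markers summed to 102400 FPKM, 8 epididymal markers to 21610 FPKM, and the fat hormone adiponectin (Adipoq) stood at 202 FPKM, against 2781 and 1826 in ND 2 and ND 3. Of the 37 genes measured well enough in fat, 32 lay under the mean of ND 2 and ND 3 in ND 1, by a median log2 difference of -2.38, against -0.51 over 12859 genes. The carnitine palmitoyltransferase Cpt1b stood at 84.7 FPKM there, against 1.73 in ND 2 and 17.4 in ND 3. Spermatid markers also summed to 3392 FPKM in ND 3 and 2270 in HFD 1, and to at most 195 in the other 6 adipose libraries. Epididymal markers summed to 1172 FPKM in HFD 2, from 1 of the 8 at 10 FPKM or more, and to at most 14.3 in the other 7. Counts of calls in fat are therefore given with and without ND 1.

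Liver GT 3 was low in most of these genes, with 41 of 44 under the ND mean, a median log2 difference of -0.82 against -0.08 over 10670 genes, and 32 at their lowest liver level. In liver GT 1 and GT 2 the medians were -0.30 and -0.26. Albumin (Alb) marked all liver libraries at 21160 to 28180 FPKM except HFD 3, where it is listed at 0, so that a 0 can be a failed estimate. Of 11 muscle markers, the summed level was 151 FPKM in liver HFD 2, 60.5 in GT 3, 31.1 in HFD 3 and at most 3.44 in the other 6, and its part in the results was not tested. The 10 adipocyte markers summed to 50.2 to 80.3 FPKM in ND liver, 263 to 330 in HFD and 211 to 342 in GT, with 1 of 10 at 10 FPKM or more in ND and 4 or 5 in HFD and GT. Adipoq lay between 0 and 1.40 FPKM in liver, and the part of this shift was not tested either. FPKM totals ran from 527904 to 1002765 in fat and from 680168 to 930139 in liver, and read numbers were not analysed here.

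Between tissues, 26 of the 45 genes were higher in every liver library than in any of the 8 adipose libraries without ND 1, 4 were higher in fat and 15 overlapped. The same split over all genes was not computed, so these counts are not read as particular to oxidation genes. The Cyp4a genes were nearly restricted to liver: Cyp4a14 had a median of 1097 FPKM over the 9 liver libraries and 0.0853 FPKM in fat. The peroxisomal thiolase Acaa1b had a median of 1829 FPKM in liver against 71.4 in fat, and the peroxisomal carnitine octanoyltransferase Crot 385 against 19.1. Fat was higher for Pdk4, the kinase that turns off pyruvate dehydrogenase (median 130 FPKM against 4.47), for Angptl4, an inhibitor of lipoprotein lipase (401 against 97.7), and for Abcd2, a peroxisomal transporter of very long acyl-CoA (112 against 6.96). The isomerase Eci3 had a median of 4.82 FPKM in fat and lay between 0 and 0.187 in liver.

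Livers of HFD mice had lower levels of the omega-oxidation cytochromes, of the peroxisomal bifunctional enzyme Ehhadh and of genes of fatty acid entry, while most enzymes of the mitochondrial spiral did not pass the test. Changes below are log2 ± SE on log2(FPKM + 1), a scale that understates the change of low genes, from limma with Benjamini-Hochberg adjustment over all genes of the fit. Of the 44 members tested, 10 fell and 2 rose in HFD against ND, where 6.67% of all 10670 genes fell and 11.9% rose. The median change of the 44 was -0.24, against -0.02 over all genes tested. With FPKM totals made equal, 613 genes rose and 850 fell in place of 1268 and 712, around a median of -0.20. Without GT 3, which is in neither group but enters the estimate of the spread, 20 of the 44 fell and 3 rose. Shares of all genes given for liver, here and below, are those of the fit with all its libraries and do not apply to this repeat. Member counts without GT 3, here and below, are therefore not read as particular to these genes.

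**Figure D1:**
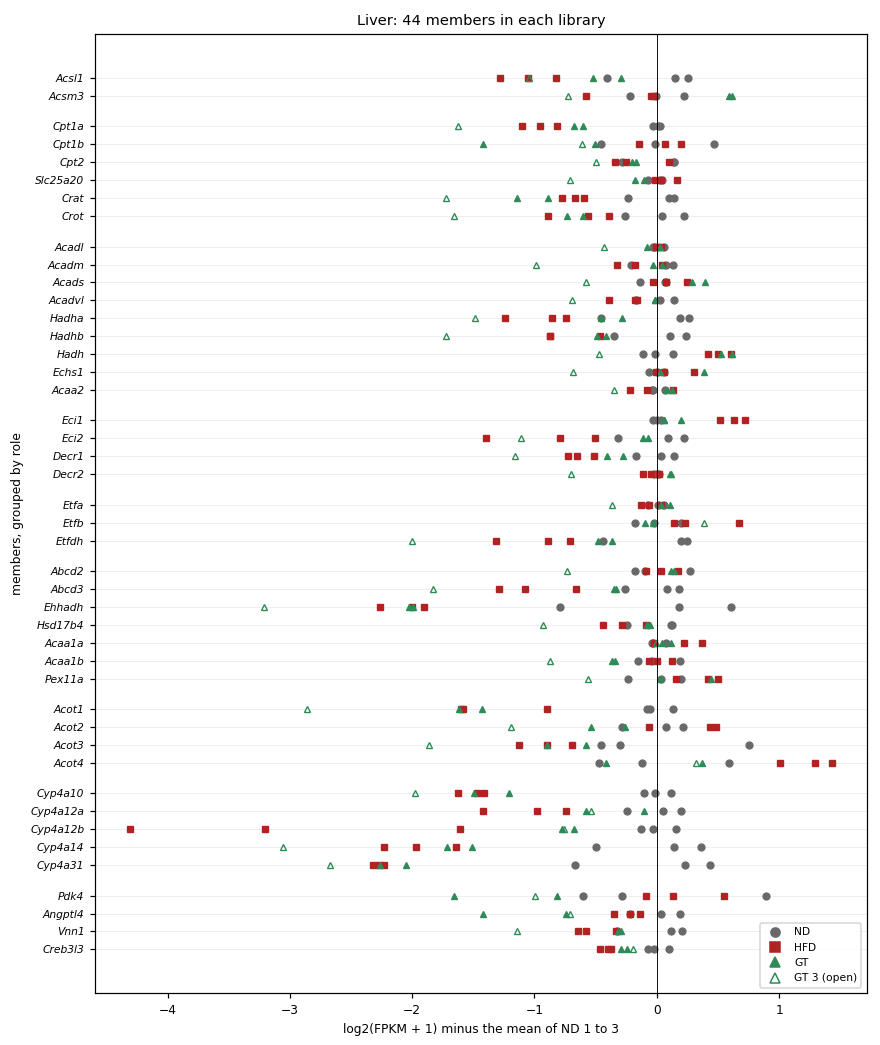
Each row is 1 of 44 genes in liver and each symbol 1 library: the horizontal axis is log2(FPKM + 1) minus the mean of ND 1 to 3, with ND as grey circles, HFD as red squares, GT as green triangles and GT 3 open. The 5 Cyp4a genes, Ehhadh and Acot1 lie left of 0 in every HFD and GT library, and GT 3 is the lowest of the 9 libraries in 32 genes.

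All 5 Cyp4a genes fell. Cyp4a10 stood at 2034, 1904 and 2224 FPKM in ND, at 770, 740 and 662 in HFD and at 729, 885 and 520 in GT. No HFD or GT library reached the lowest ND library, and HFD was lower than ND by -1.50 ± 0.20 (adjusted p = 0.00176). Cyp4a14 stood at 4395, 2425 and 3767 FPKM in ND, 1097, 730 and 875 in HFD and 1041, 1200 and 412 in GT. Again every library on a high-fat diet lay below all ND libraries, with a change of -1.95 ± 0.37 in HFD (adjusted p = 0.00791). Cyp4a31 was at 77.4, 41.0 and 89.1 FPKM in ND, at 12.8, 12.3 and 13.2 in HFD and at 12.9, 15.1 and 9.47 in GT, and fell by 2.28 ± 0.26 on the log2 scale in HFD (adjusted p = 0.00113). In RefSeq gene order Cyp4a12a, Cyp4a12b, Cyp4a14, Cyp4a10 and Cyp4a31 belong to a single cluster on chromosome 4, so they share a neighbourhood, and reads of such similar genes may be split between them.

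Cyp4a12a and Cyp4a12b are near-identical copies, and their separate values are uncertain for that reason. Cyp4a12b was at 71.2, 66.2 and 81.2 FPKM in ND, at 23.1, 6.98 and 2.72 in HFD and at 45.1, 41.9 and 42.5 in GT. The 3 diets did not overlap, with GT between the other two, and HFD was lower than ND by -3.04 ± 0.50 (adjusted p = 0.00531). Cyp4a12a changed by -1.05 ± 0.21 (adjusted p = 0.0104), a call lost without HFD 2 or without ND 3. Summed over both copies, the level was 229, 195 and 256 FPKM in ND, 100.1, 63.2 and 93.3 in HFD and 147, 184 and 147 in GT, in the same order of diets without overlap.

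Among the 7 peroxisomal genes, Ehhadh alone fell and none rose. It catalyses the hydratase and dehydrogenase steps of peroxisomal beta-oxidation. Its level was 1612, 612 and 1197 FPKM in ND, 282, 220 and 263 in HFD and 259, 264 and 113 in GT, with every HFD and GT library below the lowest ND library. The change in HFD was -2.06 ± 0.38 (adjusted p = 0.00673). The acyl-CoA transporter Abcd3 changed by -1.01 ± 0.35 and did not pass (adjusted p = 0.0696). It passed without GT 3 (-1.01 ± 0.18, adjusted p = 0.00317). The thiolases Acaa1a and Acaa1b, near copies of each other, ranged from 224 to 295 and from 1829 to 2085 FPKM in HFD against 222 to 240 and 1721 to 2176 in ND, and did not pass.

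The 250 bases before the start of Ehhadh (GRCm38.p6, chr16:21787835-21788084, minus strand) are shown because this gene carried the deepest fall outside the cytochromes. They held no motif match at 3 or fewer mismatches.
Ehhadh: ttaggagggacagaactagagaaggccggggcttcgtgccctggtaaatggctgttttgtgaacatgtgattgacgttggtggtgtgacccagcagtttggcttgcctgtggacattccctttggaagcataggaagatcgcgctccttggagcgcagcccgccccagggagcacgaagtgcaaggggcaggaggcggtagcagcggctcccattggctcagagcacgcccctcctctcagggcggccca

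Fatty acid entry was lower at several points. Acsl1, the main long-chain acyl-CoA synthetase of liver, stood at 979, 617 and 908 FPKM in ND, 462, 336 and 393 in HFD and 569, 669 and 397 in GT, and fell in HFD by 1.05 ± 0.24 on the log2 scale (adjusted p = 0.0148). Cpt1a, the liver form of carnitine palmitoyltransferase 1, stood at 262, 254 and 265 FPKM in ND, at 134, 121 and 148 in HFD and at 171, 162 and 83.7 in GT. Its ND libraries lay close together and above all others, and HFD changed by -0.96 ± 0.24 (adjusted p = 0.0219). Crat, which forms and breaks short-chain acylcarnitines, was at 106, 81.2 and 103 FPKM in ND, at 55.7, 60.1 and 63.2 in HFD and at 51.3, 42.8 and 28.4 in GT. It changed by -0.68 ± 0.21 in HFD (adjusted p = 0.0459). The calls of Acsl1, Cpt1a and Crat were lost without HFD 2, without ND 1 or without ND 3, those of Cpt1a and Crat also without HFD 1, and that of Crat without HFD 3 or GT 2, with the replicate block and with no filter. The inner-membrane carrier Slc25a20 (129 to 146 FPKM in HFD, 124 to 134 in ND) and Cpt2 (131 to 179 against 136 to 184) overlapped between the diets. Crot (307 to 433 FPKM in HFD, 474 to 661 in ND) did not pass, but fell in limma without GT 3 (-0.61 ± 0.17, adjusted p = 0.0193).

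None of the 9 core mitochondrial enzymes passed in HFD against ND, and 2 had an unadjusted p under 0.05, as had 3758 of all 10670 genes. Acadl and Acadm, the long- and medium-chain dehydrogenases, ranged from 178 to 184 and 281 to 362 FPKM in HFD against 175 to 186 and 305 to 386 in ND. The subunits of the trifunctional protein, Hadha and Hadhb, had the lowest changes. Hadha stood at 246, 157 and 259 FPKM in ND, 129, 90.6 and 118 in HFD and 157, 177 and 76.2 in GT, a change of -0.95 ± 0.31 (adjusted p = 0.0545). Without GT 3 both subunits passed, Hadha at -0.95 ± 0.20 (adjusted p = 0.00694) and Hadhb at -0.74 ± 0.18 (adjusted p = 0.0112), while Hadh, the short-chain dehydrogenase, passed upward at 0.51 ± 0.12 (adjusted p = 0.0116).

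Hadha and Hadhb are transcribed away from each other in RefSeq, with 272 bases between their starts, and 228 bases lie within 250 bases of both. Their shared promoter is shown along the strand of Hadha (GRCm38.p6, chr5:30154981-30155230, minus strand), since it serves both subunits of the same enzyme.
Hadha: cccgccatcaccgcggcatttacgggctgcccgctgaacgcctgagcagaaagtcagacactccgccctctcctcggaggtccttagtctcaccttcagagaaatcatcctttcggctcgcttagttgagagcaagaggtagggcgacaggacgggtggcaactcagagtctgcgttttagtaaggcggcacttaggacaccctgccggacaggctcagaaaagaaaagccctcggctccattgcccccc

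The auxiliary enzymes of unsaturated fatty acids did not share a direction. Eci1, the mitochondrial enoyl-CoA isomerase, stood at 205, 210 and 200.1 FPKM in ND, 319, 339 and 294 in HFD and 235, 214 and 213 in GT. The HFD libraries lay above all others, a rise of 0.63 ± 0.14 over ND (adjusted p = 0.0134), which was lost at equal FPKM totals and without HFD 2, ND 1 or ND 3. Eci2, the isomerase found also in peroxisomes, was at 155, 116 and 169 FPKM in ND, 102, 54.6 and 83.3 in HFD and 138, 134 and 66.5 in GT. Its change of -0.90 ± 0.31 did not pass (adjusted p = 0.0625), nor did that of the dienoyl-CoA reductase Decr1 (-0.63 ± 0.22, adjusted p = 0.0680). Of the electron transfer genes, Etfdh, which hands electrons to the respiratory chain, changed by -0.97 ± 0.38 (adjusted p = 0.0985), and Etfa ranged from 341 to 383 FPKM in HFD against 355 to 387 in ND. Eci2, Decr1 and Etfdh passed without GT 3.

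The acyl-CoA thioesterases, which release free fatty acids from acyl-CoA, moved in opposite directions. Acot1, the cytosolic form, stood at 173, 149 and 151 FPKM in ND, 83.8, 51.8 and 51.1 in HFD and 50.7, 58.0 and 20.8 in GT, a fall of 1.36 ± 0.33 on the log2 scale in HFD (adjusted p = 0.0193) that was lost without HFD 2, HFD 3, ND 1 or ND 3. Acot4, a peroxisomal form, was low: 1.61, 0.592 and 0.251 FPKM in ND, 3.26, 2.49 and 3.67 in HFD and 0.297, 1.24 and 1.17 in GT. The HFD libraries were above the other 6, and Acot4 rose by 1.25 ± 0.28 over ND (adjusted p = 0.0145), a call lost without ND 3. Acot2, the mitochondrial form, and Acot3 did not pass, but Acot3 fell in limma without GT 3 (-0.905 ± 0.283, adjusted p = 0.0362). In RefSeq the order along chromosome 12 is Acot2, Acot1, Acot4, Acot3, so the gene that fell and the gene that rose are neighbours, and Acot1 and Acot2 are so alike that reads may be split between them.

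The 250 bases before the starts of these neighbours (GRCm38.p6, chr12:84009252-84009501 and chr12:84038129-84038378, both on the plus strand) are shown because the genes moved in opposite directions. Capitals mark the match with 2 mismatches in Acot4, and the window of Acot1 held none at 3 or fewer.
Acot1: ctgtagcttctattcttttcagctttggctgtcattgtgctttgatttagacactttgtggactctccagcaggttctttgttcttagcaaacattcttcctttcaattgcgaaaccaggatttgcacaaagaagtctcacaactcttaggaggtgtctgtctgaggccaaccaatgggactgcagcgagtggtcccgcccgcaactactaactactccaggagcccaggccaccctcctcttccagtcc
Acot4: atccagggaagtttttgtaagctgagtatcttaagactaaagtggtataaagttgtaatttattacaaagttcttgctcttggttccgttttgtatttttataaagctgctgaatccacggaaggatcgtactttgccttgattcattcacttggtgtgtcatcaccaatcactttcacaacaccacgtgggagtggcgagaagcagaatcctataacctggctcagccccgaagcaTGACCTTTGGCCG

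None of the 4 other PPAR-alpha targets passed in liver in HFD against ND with all libraries in the fit. Creb3l3, a membrane-bound transcription factor of liver lipid metabolism, ranged from 141 to 150.3 FPKM in HFD against 185 to 209 in ND, without overlap (-0.41 ± 0.14, adjusted p = 0.0549). Vnn1, which makes cysteamine from pantetheine, ranged from 104 to 130.0 FPKM in HFD against 130.2 to 190 in ND. Without GT 3 both fell in limma, Creb3l3 at -0.41 ± 0.11 (adjusted p = 0.0197) and Vnn1 at -0.52 ± 0.16 (adjusted p = 0.0307). Ppara itself, the receptor's gene, stood at 66.7, 41.0 and 73.9 FPKM in ND, 40.8, 39.1 and 53.6 in HFD and 57.0, 55.3 and 57.8 in GT. Its diets overlapped, and its changes did not pass in any comparison of either tissue (-0.41 ± 0.22 in liver HFD against ND, adjusted p = 0.208). The calls of Cyp4a10, Cyp4a14, Cyp4a31 and Ehhadh held in each of the 18 repeats of the liver fit, and that of Cyp4a12b was lost when both HFD 2 and GT 3 were left out.

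**Figure D2:**
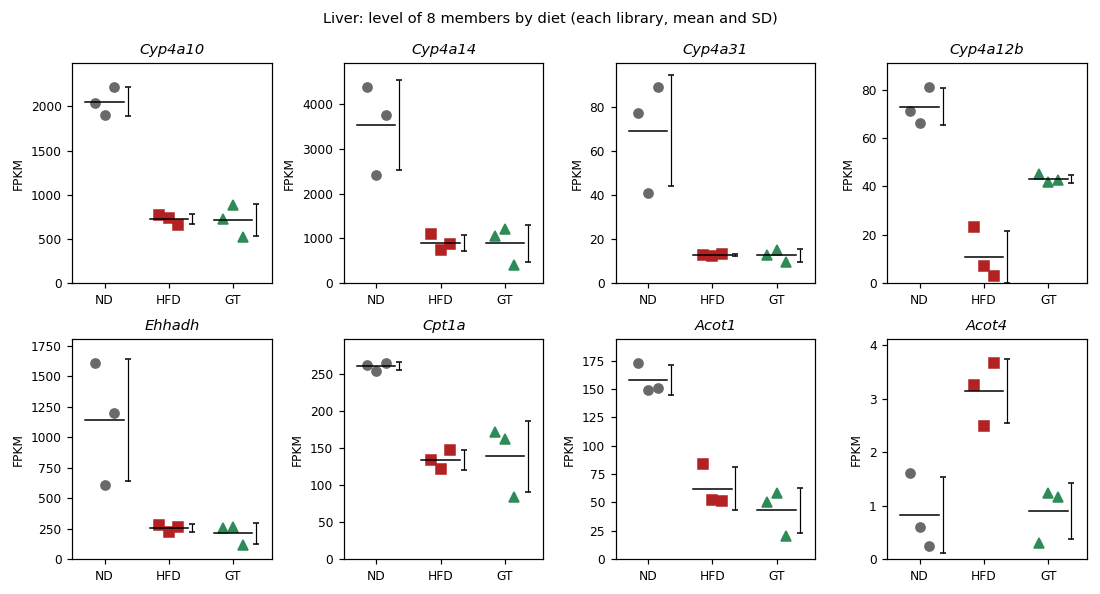
FPKM (vertical axes, from 0) of 8 genes in each liver library by diet; the line is the mean and the bar beside it the SD of 3 libraries. Acot4 is higher in HFD than in ND and GT, the other 7 are lower in HFD than in ND, and Cyp4a12b is intermediate in GT.

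In liver, few of these genes passed when green tea extract was added to the high-fat diet, and whether levels were equal was not tested. Of the 44, 1 rose and 1 fell in GT against HFD, where 1.14% of all genes rose and 4.22% fell. At an unadjusted p under 0.05 in limma there were 10, against 2502 of all 10670 genes. The median change was -0.14 against -0.04 over all genes. The members' median was 0.14 without GT 3, 0.11 without both HFD 2 and GT 3, and 0.01 at equal FPKM totals, so its sign depends on these choices. Cyp4a12b rose by 2.30 ± 0.50 (adjusted p = 0.0317). This call was lost without any 1 of GT 1, GT 2, GT 3, HFD 2 and HFD 3. Acot4 fell by 1.15 ± 0.28 on the log2 scale (adjusted p = 0.0431), a call lost in 13 of 17 repeats. Next in order of p, and not passing, were Acot2 at -0.95 ± 0.25 (adjusted p = 0.0507), Pdk4 at -1.36 ± 0.36 (adjusted p = 0.0520), Eci1 at -0.52 ± 0.14 (adjusted p = 0.0530), Angptl4 at -0.73 ± 0.21 (adjusted p = 0.0650) and the muscle-type carnitine palmitoyltransferase Cpt1b at -0.89 ± 0.27 (adjusted p = 0.0820).

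These 5 genes can be read by library. Eci1, listed above by library, was lower in each GT library than in each HFD library. Angptl4 stood at 89.4, 98.1 and 104 FPKM in HFD and at 67.7, 41.9 and 69.2 in GT, also without overlap, and Pdk4 at 6.28, 5.26 and 8.77 against 2.79, 1.11 and 2.34. Acot2 stood at 13.0, 19.5 and 18.9 FPKM in HFD and at 11.3, 9.07 and 5.43 in GT, and Cpt1b at 7.21, 6.07 and 7.998 against 4.501, 1.92 and 4.11. In all 5 genes every GT library lay below every HFD library. They were picked by their small p in this same comparison, so the separation adds no support. Its share over all genes was not computed. Without GT 3 the calls were 4: the medium-chain synthetase Acsm3 rose (0.82 ± 0.19, adjusted p = 0.0260), and Eci1, Acot4 and Angptl4 fell (-0.50 ± 0.13, -1.27 ± 0.31 and -0.85 ± 0.20, with adjusted p of 0.0380, 0.0324 and 0.0267).

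Against the normal diet, GT liver had 7 of the 44 genes lower and 0 higher in limma, where 1.33% of all genes fell and 1.27% rose. At an unadjusted p under 0.05 there were 21, against 1765 of all 10670 genes. The 7 that passed were Cyp4a31 (-2.33 ± 0.26, adjusted p = 0.00331), Cyp4a10 (-1.56 ± 0.20, 0.00439), Ehhadh (-2.41 ± 0.38, 0.0103), Crat (-1.25 ± 0.21, 0.0134), Acot1 (-1.97 ± 0.33, 0.0139), Cyp4a14 (-2.09 ± 0.37, 0.0177) and Angptl4 (-0.96 ± 0.21, 0.0384). Of the 10 genes lower in HFD, 6 were thus also called lower in GT, and both comparisons share the ND libraries. Without GT 3, 8 were lower and 1 higher, and Cpt1a, at -0.97 ± 0.24 with an adjusted p of 0.0643 before, then fell (-0.64 ± 0.13, adjusted p = 0.0265). Without ND 1 or without ND 3 the count was 2.

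In epididymal fat, with all 9 libraries in the limma fit, none of the 37 genes tested passed in any comparison. In HFD against ND 5 had an unadjusted p under 0.05, in GT against HFD 0 and in GT against ND 2. Among all 13762 genes the counts under that unadjusted threshold were 2828, 467 and 2807. Over all 13762 genes, 5.28% rose and 0.371% fell in HFD against ND, 0% and 0% in GT against HFD, and 0.61% and 0.0291% in GT against ND. The members' median change was 0.53 in HFD against ND (24 positive, 13 negative), 0.31 in GT against HFD and 0.69 in GT against ND, where the medians of all genes were 0.13, -0.14 and 0.08. For HFD against ND this sign is opposite to that without ND 1, given next. The other 8 members, Acot3, Acot4, Creb3l3 and the 5 Cyp4a genes, did not reach 1 FPKM in 3 fat libraries.

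Without ND 1, some enzymes of mitochondrial oxidation were lower in fat on the high-fat diet and a few genes were higher. Of the 37, 11 fell and 3 rose in HFD against ND, where 9.62% of 12859 genes fell and 17.8% rose, with a median change of -0.22 against 0.02 over all genes. The ND group then has 2 libraries, of which ND 3 carries spermatid RNA. Left without ND 3 and HFD 1 too, with ND 2 alone in its group, the members' median change was -0.37, against 0.14 over all genes. Fewer cells of a type and less RNA per cell cannot be told apart in whole tissue. Over the same libraries 10 macrophage markers summed to 565 and 440 FPKM in ND, 4587 to 6679 in HFD and 1521 to 3811 in GT, and 10 adipocyte markers to 13740 and 12890, 5389 to 5532 and 7740 to 12420. The 10 hepatocyte markers summed to 1625 and 1516 FPKM in ND, 74.0 to 124 in HFD and 256 to 812 in GT, with 1 or 2 of them at 10 FPKM or more. Most of that sum was Cyp2e1 (1612 and 1492 FPKM in ND), while Alb lay between 0.947 and 8.40 FPKM in fat. The macrophage marker Adgre1 stood at 16.0 and 14.3 FPKM in ND, at 195 to 259 in HFD and at 57.5 to 136 in GT. The part of these shifts in the changes below was not tested.

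**Figure D3:**
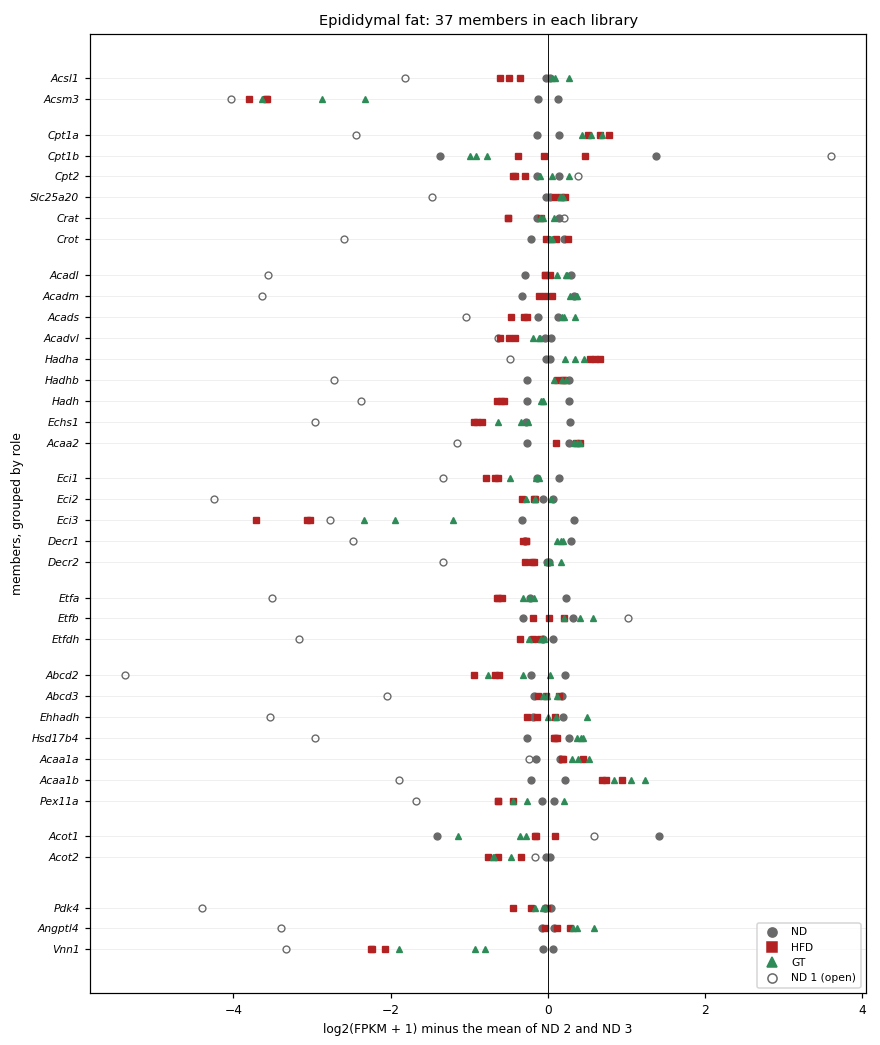
Each row is 1 of 37 genes in epididymal fat and each symbol 1 library: the horizontal axis is log2(FPKM + 1) minus the mean of ND 2 and ND 3, with ND as grey circles, HFD as red squares, GT as green triangles and ND 1 open. ND 1 lies left of 0 in 32 of the 37 genes, and Acsm3, Eci3 and Vnn1 lie far left of 0 in all HFD libraries.

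The steepest falls were in 3 genes of low to moderate level. Acsm3 stood at 23.2 and 19.3 FPKM in ND 2 and ND 3, at 0.593, 0.850 and 0.856 in HFD, at 0.782, 2.01 and 3.40 in GT, and at 0.358 in ND 1. HFD changed by -3.65 ± 0.34 (adjusted p = 0.00104). Eci3 stood at 31.0 and 19.3 FPKM in ND 2 and ND 3, at 0.944, 2.13 and 2.06 in HFD, at 4.03, 5.61 and 10.1 in GT and at 2.73 in ND 1, a change of -3.27 ± 0.37 in HFD (adjusted p = 0.00131). In RefSeq Eci3 lies near Eci2 on chromosome 13, and Eci2 ranged only from 28.6 to 32.1 FPKM in HFD against 38.0 and 34.6 in ND, without passing. Vnn1 stood at 38.5 and 42.0 FPKM in ND 2 and ND 3, 7.64, 7.73 and 8.80 in HFD, 10.1, 22.6 and 20.8 in GT and 3.08 in ND 1, a change of -2.19 ± 0.30 in HFD (adjusted p = 0.00187). In all 3 genes the GT libraries lay below both ND libraries, and in Eci3 and Vnn1 above all HFD libraries. These genes too were picked by their fall in HFD, and the share of such an order over all genes was not computed.

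Within the mitochondrial spiral 3 of 9 genes fell and 1 rose. Echs1, the short-chain enoyl-CoA hydratase, stood at 202 and 138 FPKM in ND 2 and ND 3, 93.1, 88.8 and 86.6 in HFD and 132, 107 and 139 in GT, a change of -0.89 ± 0.19 in HFD (adjusted p = 0.00960). Hadh stood at 250.8 and 172 FPKM, then 141, 132 and 137, then 196, 200 and 199 in the same order of diets (-0.60 ± 0.16, adjusted p = 0.0267). The very long-chain dehydrogenase Acadvl stood at 114 and 108 FPKM in ND, 82.5, 72.5 and 78.6 in HFD and 96.6, 103 and 102 in GT (-0.51 ± 0.11, adjusted p = 0.0129). In each of these 3 genes all HFD libraries lay below all GT libraries and both ND libraries. They were picked by their fall in HFD, and both comparisons share the HFD libraries, so the separation adds no support. Its share over all genes was not computed. Hadha went the other way, from 78.2 and 81.5 FPKM in ND to 127, 117 and 121 in HFD and 110.3, 102 and 92.7 in GT, a rise of 0.60 ± 0.12 (adjusted p = 0.00823). Its partner Hadhb, which shares the promoter printed above, ranged from 142 to 151 FPKM in HFD against 158 and 109 in ND and did not pass.

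At the entry step Acsl1 changed by -0.49 ± 0.14 in HFD (adjusted p = 0.0332), from 477 and 461 FPKM in ND 2 and ND 3 to 367, 333 and 306, with 484, 499 and 566 in GT. Cpt1a rose by 0.65 ± 0.15 (adjusted p = 0.0130), from 39.4 and 48.3 FPKM to 62.7, 69.3 and 75.4, and stood at 64.3, 71.0 and 59.0 in GT. Its level in ND 1 was 7.22 FPKM. Acaa1b rose by 0.79 ± 0.18 (adjusted p = 0.0132), from 47.8 and 35.0 FPKM to 79.7, 68.8 and 66.4. The others that fell were Eci1 (-0.69 ± 0.15, adjusted p = 0.0116), the flavoprotein subunit Etfa (-0.62 ± 0.15, 0.0187), Acot2 (-0.58 ± 0.17, 0.0343) and Abcd2 (-0.75 ± 0.24, 0.0499).

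The calls of Acsm3, Eci3, Vnn1, Echs1, Acadvl, Eci1 and Hadha held in all repeats of this fit that tested them, 15 for Acsm3 and 17 for the others. That of Cpt1a was lost without HFD 3, that of Acaa1b without ND 3, and that of Etfa without HFD 2, HFD 3 or ND 2. Acsl1, Hadh, Acot2 and Abcd2 lost theirs in 7 to 11 of 17 repeats. The number called was 9 without HFD 2 and 9 without HFD 3, where 2792 of 12691 and 2048 of 12790 genes were called. Levels of Crat (81.2 to 109 FPKM in HFD, 106 and 128 in ND), Acadm (189 to 214 against 260 and 163) and Slc25a20 (36.7 to 40.3 against 35.1 and 33.9) did not pass.

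**Figure D4:**
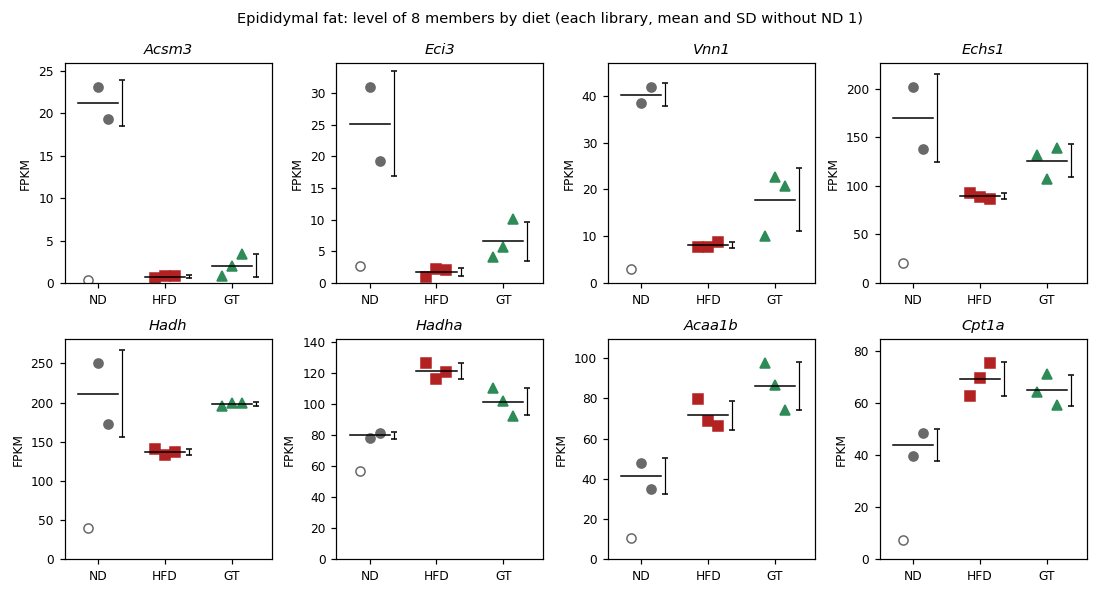
FPKM (vertical axes, from 0) of 8 genes in each epididymal fat library by diet, with ND 1 as an open circle; the line is the mean and the bar beside it the SD, both without ND 1. The first 5 genes have their lowest mean in HFD, while Hadha, Acaa1b and Cpt1a are higher in HFD than in ND.

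In GT against HFD fat, none of the 37 genes passed in limma without ND 1, where 0.894% of all genes rose and 0.801% fell. At an unadjusted p under 0.05 there were 16, against 2908 of all 12859 genes. The median change was 0.31, against -0.12 over all genes. Nearest to the threshold were Acsl1 (0.62 ± 0.12) and the short-chain dehydrogenase Acads (0.59 ± 0.12), both with an adjusted p of 0.0530, then Eci3 (1.44 ± 0.33, 0.0721), Vnn1 (0.98 ± 0.26, 0.0927) and Hadh (0.53 ± 0.15, 0.0947). Acads stood at 57.5, 49.6 and 55.7 FPKM in HFD and at 78.1, 80.1 and 88.0 in GT, against 75.6 and 63.3 in ND 2 and ND 3. When only HFD and GT libraries were fitted, 5 members rose and 1 fell, where 416 of all 12386 genes rose and 504 fell. Leaving out GT 1 gave 2 calls among the members, where 370 of 12808 genes were called. Without ND 2 or without ND 3 the members' median change stayed at 0.31, since ND is in neither group. The HFD and GT comparisons share the HFD libraries, so values are set side by side only. Of the 11 genes lower in HFD than ND, 10 had a positive change in GT against HFD. Of the 3 higher, 2 had a negative one. Among all 37 members 30 changes were positive and 7 negative, and among all 12859 genes 4514 and 8345.

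Against ND 2 and ND 3, GT fat had 3 genes lower and 2 higher, where 3.16% of all genes fell and 7.5% rose. Acsm3 changed by -2.95 ± 0.34 (adjusted p = 0.00532), Eci3 by -1.83 ± 0.37 (0.0215), Vnn1 by -1.21 ± 0.30 (0.0396), Acaa1b by 1.05 ± 0.18 (0.0127) and Cpt1a by 0.56 ± 0.15 (0.0468). Only Acsm3 held throughout, in the 16 repeats of this comparison that tested it, against 17 repeats for the others called. Leaving out GT 2 gave 1 call, where 145 of 12810 genes were called. Leaving out GT 1 or any HFD library gave 3, where 553 to 1084 genes were called. Without ND 2, which leaves ND 3 alone, the members' median change was 0.19, against -0.11 over all genes.

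Both tissues were then compared in a single model of the difference, liver minus fat. Without adipose ND 1, the high-fat response of 9 of 36 genes differed between the tissues, 5 higher and 4 lower in liver, where 9.69% of 9957 genes were higher and 11.9% lower. The difference was 3.44 ± 0.49 for Acsm3 (adjusted p = 0.000199), which ranged from 39.3 to 58.2 FPKM in HFD liver against 50.7 to 69.0 in ND liver, and 1.67 ± 0.39 for Vnn1 (0.00623). For Eci1 it was 1.32 ± 0.20 (0.00024), for Hadh 1.11 ± 0.33 (0.0244) and for Echs1 1.01 ± 0.33 (0.0345). Eci1 thus rose in HFD liver and fell in HFD fat. Cpt1a (-1.61 ± 0.31, 0.00179) and Hadha (-1.55 ± 0.38, 0.00868) had lower changes in liver, as did Ehhadh (-1.95 ± 0.49, 0.00954) and Acaa1b (-0.77 ± 0.26, 0.0480). Cpt1a fell in HFD liver and rose in HFD fat. With ND 1 in the model 0 genes were higher and 2, Cpt1a and Hadha, lower, against 2.55% and 5.98% of 10042 genes.

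**Figure D5:**
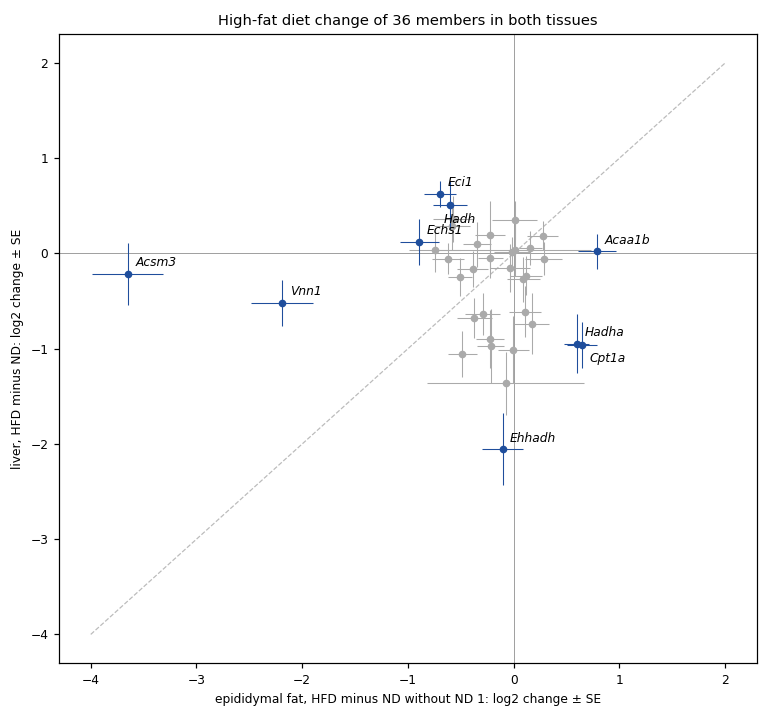
Change in HFD against ND (log2 ± SE) of 36 genes in epididymal fat without ND 1 (horizontal axis) and in liver (vertical axis); the 9 named blue genes differed between the tissues and the dashed line marks equal change. Acsm3 and Vnn1 lie far to the left, Ehhadh lies lowest, and Cpt1a and Hadha lie at the lower right.

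The extract's change against HFD differed between tissues for 2 of the 36 genes without ND 1, both lower in liver, where 1.09% of all genes were higher and 2.78% lower. Eci1 differed by -0.97 ± 0.19 (adjusted p = 0.0119) and Angptl4 by -1.04 ± 0.26 (adjusted p = 0.0345). The call of Angptl4 was lost in 8 of 24 repeats, among them those without adipose GT 2, GT 3, HFD 2 or HFD 3 and without liver GT 2, HFD 2 or HFD 3, and both calls were lost at equal FPKM totals (adjusted p of 0.0634 for Eci1). Angptl4 stood at 424, 339 and 377 FPKM in HFD fat and at 452, 437 and 524 in GT fat, while its liver values, given above, were lower in GT. With ND 1 in the model limma called 0 of 36, against 0% higher and 0.00996% lower over all genes. In that model the unadjusted p of Eci1 was 0.0302.

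Other genes of the pathway were taken from lists compiled from general knowledge. Their counts in liver for HFD against ND stand beside the 6.67% of all genes that fell and the 11.9% that rose. Of 19 tested regulators in liver, 2 rose in HFD against ND, Pparg (1.21 ± 0.20, adjusted p = 0.00531), the adipogenic PPAR, which is also among the adipocyte markers, and Nr0b2 (1.63 ± 0.46, adjusted p = 0.0337), a corepressor, and none fell. The coactivator Ppargc1a changed by -0.52 ± 0.21 (adjusted p = 0.109). Of 24 further oxidation enzymes, 4 fell and 2 rose. Hacl1, the lyase of phytanic acid alpha-oxidation, changed by -1.08 ± 0.19 (adjusted p = 0.00559), Cyp4f14 by -1.06 ± 0.23 (0.0125) and Cyp4f15 by -0.60 ± 0.14 (0.0161). Of 16 other thioesterases and ligases 3 rose and 2 fell, led by a rise of Acot13 (1.34 ± 0.25, 0.00690), and of 14 peroxisome assembly genes 1 rose. Of 17 PPAR-alpha targets outside oxidation, 3 rose and 2 fell: the uncoupling protein Ucp2 rose (1.61 ± 0.27, 0.00488), as did the hormone gene Fgf21 (0.83 ± 0.21, 0.0218), and Retsat fell (-1.17 ± 0.21, 0.00642).

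In GT against HFD liver, 3 of these 17 targets fell and none rose, where 4.22% of all genes fell and 1.14% rose. Fgf21 changed by -2.07 ± 0.21 (adjusted p = 0.00244), Ucp2 by -1.07 ± 0.27 (0.0449) and the lipid droplet protein Plin5 by -0.84 ± 0.21 (0.0452). Cyp4f14 rose by 1.22 ± 0.23 (0.0186), and of the regulators none was called.

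In fat without ND 1, 9 of 21 further oxidation enzymes fell in HFD against ND and 2 rose, where 9.62% of all genes fell and 17.8% rose, with a median of -0.35 against 0.02 over all genes. Acad11 changed by -1.25 ± 0.18 (adjusted p = 0.00216), the phytanoyl-CoA hydroxylase Phyh by -1.44 ± 0.21 (0.00227) and Echdc2 by -1.63 ± 0.27 (0.00403). Of 17 targets outside oxidation 8 fell and 2 rose, with rises of the droplet protein Plin2 (2.26 ± 0.27, 0.00134) and of Ucp2 (2.45 ± 0.29, 0.00134) and a fall of Ucp3 (-1.54 ± 0.22, 0.00222). Of 16 regulators 4 fell and 1 rose, of 14 peroxisome assembly genes 3 fell, and of 12 thioesterases and ligases 2 fell and 1 rose. In GT against HFD fat 4 of the 17 targets rose, among them Plin5 (1.33 ± 0.24, 0.0463), Fgf21 (0.96 ± 0.17, 0.0463) and Ucp3 (1.07 ± 0.20, 0.0477), while none in the other 4 lists was called, where 0.894% of all genes rose and 0.801% fell. These counts carry the same shifts in marker sums as above.

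With all 9 fat libraries in limma, calls in these lists were few. In HFD against ND, 1 of 21 further oxidation enzymes rose and 1 fell, with a median of 0.21 in place of -0.35, and 2 of 17 targets outside oxidation rose and 0 fell, with a median of 0.20. None of the 16 regulators, 14 thioesterases and ligases and 14 peroxisome assembly genes passed, with 1, 3 and 1 at an unadjusted p under 0.05. Of all 13762 genes 2828 were under that threshold. In GT against HFD none passed in any of the 5 lists. There 2 targets and 1 regulator had an unadjusted p under 0.05, against 467 of all 13762 genes.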

How the data were processed

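The authors deposited their expression values as FPKM, 18 library columns in all, and these were taken unchanged. Tools named in the submitters' processing notes are CASAVA 1.8.2, STAR 2.4.0 (an aligner) and Cufflinks 2.1.1 (which estimates FPKM). PolyA RNA was the input, per the labels. No source used here names the genome build, and coordinates are those of RefSeq promoters on GRCm38.p6. Of 23474 identifiers 22671 matched a symbol in GENCODE M21, all 45 members among them.

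Genes reaching 1 FPKM in at least 3 libraries of a fit were tested as log2(FPKM + 1) in limma 3.58.1 (R 4.3.3) with trend and robust options, a mean per diet, and Benjamini-Hochberg adjustment over all genes at 0.05. The ± values are SE. Tissue differences were interaction contrasts. The fit was also run on simulated data with independent normal noise. These held no outlying library such as adipose ND 1 or liver GT 3, so they cannot vouch for the calls here. Members, lists and tests were chosen with earlier results of these data known. All members could be named, with up to 5 uncalled per comparison by smallest p, and from each further list up to 3 called genes. Repeats changed the pseudocount, filter, scaling, variance prior, replicate block and libraries used. Plots came from Python 3.11.15.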

Additional observations from a re-analysis of the deposited data

Results flagged for a closer look

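The diet response of a gene differed between the tissues in 11 results of the model without adipose ND 1, and in 2 results of the model with all 18 libraries, each by limma's test of the difference (liver minus fat, log2 scale). For HFD against ND without ND 1, the difference was 3.44 for Acsm3, 1.67 for Vnn1, 1.32 for Eci1, 1.11 for Hadh and 1.01 for Echs1, and it was -1.95 for Ehhadh, -1.61 for Cpt1a, -1.55 for Hadha and -0.77 for Acaa1b. With ND 1 it was -2.42 for Cpt1a and -1.71 for Hadha. For GT against HFD without ND 1 it was -0.97 for Eci1 and -1.04 for Angptl4. Of the 9 calls for HFD against ND, those of Acsm3, Vnn1, Eci1, Ehhadh, Cpt1a and Hadha held in every repeat that tested them. There were 23 such repeats for Acsm3 and 24 for the others. The call of Hadh was lost without adipose ND 2, without liver ND 1 or at equal FPKM totals, that of Echs1 in 8 of 24 repeats and that of Acaa1b in 15. For GT against HFD the call of Angptl4 was lost in 8 of 24 repeats and that of Eci1 at equal FPKM totals. Groups of 3 libraries were too small for the test of single outlying samples.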

How the results depend on the processing

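Counts of calls below are of members first and of all genes second. Every member called in a main fit kept its direction in every repeat of that same fit that tested it. Adding ND 1 back was not among the repeats of the fat fit without it. For HFD against ND the members' median change was -0.22 without ND 1 and 0.53 with it. Acsl1, called lower without ND 1, changed by 0.12 with it, so direction in fat can depend on that library. The causes of these shifts were not tested beyond the settings' own construction. With each library left out in turn, members called ranged in liver from 5 to 23 for HFD against ND, 0 to 4 for GT against HFD and 2 to 9 for GT against ND, and all genes called from 460 to 3367, 43 to 1240 and 49 to 428. In fat with 9 libraries the same ranges were 0 to 14, 0 to 0 and 0 to 5 members and 59 to 3527, 0 to 218 and 0 to 2544 genes. In fat without ND 1 they were 9 to 16, 0 to 6 and 1 to 11 members and 2048 to 3953, 0 to 866 and 145 to 2632 genes, and a lone ND library was then assumed to vary like the other groups. Differences between tissues ranged from 0 to 10 (HFD against ND) and 0 to 2 (GT against HFD) members with 18 libraries, and from 6 to 17 and 1 to 3 without adipose ND 1. With only the compared diets fitted, liver gave 22 members for HFD against ND, 1 member and 175 genes for GT against HFD, and 4 members and 99 genes for GT against ND. That setting gave in fat 6 members and 920 genes for GT against HFD (with or without ND 1 the same libraries), 317 genes for HFD against ND and 0 for GT against ND with ND 1, and 1 member and 203 genes for GT against ND without it. No filter gave 0 members and 262 genes for GT against HFD and 143 genes for GT against ND in liver, 22 genes for GT against ND in fat with ND 1, and 3 genes for GT against HFD and 3 members and 844 genes for GT against ND without it, and 7 and 15 members for the tissue difference of HFD against ND with and without ND 1. Equal FPKM totals gave 1 member and 208 genes (liver, GT against HFD), 141 genes (liver, GT against ND), 89 genes (fat without ND 1, GT against HFD), 3 members (GT against ND there) and 0 members for the tissue difference of GT against HFD, and moved the median of all genes in fat with ND 1 from 0.13 to 0.41 for HFD against ND and from 0.08 to 0.33 for GT against ND, and in liver GT against HFD from -0.04 to 0.08. Median ratio scaling gave 1 member (liver, GT against HFD), 182 genes (fat with ND 1, GT against ND) and 4 members for the tissue difference of GT against HFD. For GT against HFD in fat without ND 1, a filter at 5 FPKM gave 3 members and 433 genes, a pseudocount of 0.1 gave 121 genes, and a plain variance prior 19. Chosen after seeing the data, leaving out both liver HFD 2 and GT 3 gave 19 members for HFD against ND, 0 members and 242 genes for GT against HFD, and 438 genes for GT against ND. Same-numbered libraries were not treated as pairs, since not every correlation of their deviations exceeded 0.1: 6 of 9 did in fat (median 0.17, against -0.13 and 5 of 18 for different numbers), 4 of 9 in liver and 2 of 9 across tissues. The replicate block gave 337 and 3 genes for HFD and GT against ND in fat with ND 1, 2279, 5 and 157 genes and 2 members for GT against ND without it, 306 and 141 genes for GT against HFD and GT against ND in liver, and 0 members for the tissue difference of HFD against ND with ND 1. Read numbers are unknown here, so the precision of low genes such as Acot4 could not be given.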
